A study of Mus musculus with 12 samples.

Results

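The miR-29 family comprised 3 of the 874 mouse miRNAs listed in any of the 12 libraries: miR-29a-3p (MIMAT0000535), miR-29b-3p (MIMAT0000127) and miR-29c-3p (MIMAT0000536). They were chosen by family membership and not by their values, and each had counts in both kinds of library. The libraries were made from 6 sera of 3 female athymic NCr nude mice (1046, 1047 and 1069), aged 4 to 6 weeks, bled before and 2 weeks after human SH-SY5Y cells, an established neuroblastoma line, had been implanted under the renal capsule. The RNA of each serum was split, and 1 of the 2 aliquots was depleted of 5′ tRNA-halves, the 5′ parts of cleaved tRNAs that fill murine serum libraries, with biotinylated DNA probes and streptavidin beads. The 4 groups of 3 libraries were thus before injection, undepleted; after injection, undepleted; before injection, depleted; and after injection, depleted. Nude mice lack a functional thymus and T cells, and all 3 received the same xenograft. As no mouse without a tumour was bled at the later time, tumour and elapsed time cannot be told apart.

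A miRNA is a short RNA that is cut from a hairpin precursor and pairs with target mRNAs mainly through its seed, bases 2 to 8 from the 5′ end. The miR-29 family is known as a repressor of collagens and other extracellular matrix genes, of the DNA methyltransferases Dnmt3a and Dnmt3b, and of the survival factor Mcl1. It is made by many tissues, and its members are found in blood.

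The mature sequences from RefSeq (GRCm38.p6) are shown because the members are told apart in the counts by only a few bases. Capitals mark the seed in each line.
miR-29a-3p: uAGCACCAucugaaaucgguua
miR-29b-3p: uAGCACCAuuugaaaucaguguu
miR-29c-3p: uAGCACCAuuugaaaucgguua
Of the 1679 mature mouse miRNAs in the table, these 3 alone carried the seed AGCACCA. Counted from 1 at the 5′ end, miR-29a-3p differed from miR-29c-3p by the single substitution C10U over 22 bases. miR-29b-3p and miR-29c-3p were identical over their first 17 bases and differed by A18G, G21U and U22A, and miR-29b-3p is 1 base longer. Reads had been mapped without mismatches, so a full-length read matched 1 of these sequences, whereas a read ending within the shared 17 bases fits both miR-29b-3p and miR-29c-3p.

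The family lies in 2 clusters on GRCm38. Mir29a (chr6:31062660-31062747, minus strand) and Mir29b-1 (chr6:31063023-31063093, minus strand) were 275 bases apart, and the end of Mir29b-1 overlapped the exon of the lincRNA Gm27019 by 2 bases. Mir29b-2 (chr1:195037040-195037120, plus strand) and Mir29c (chr1:195037547-195037634, plus strand) were 426 bases apart. Both lay in an exon of a retained-intron transcript of the non-coding gene A330023F24Rik on the same strand and, on the opposite strand, in an exon of the protein-coding gene Cd46. The 2 hairpins of miR-29b are printed because they release the same 3′ strand, in capitals with the 5′ strand, so that the counts of miR-29b-3p cannot be divided between the chromosomes.
Mir29b-1: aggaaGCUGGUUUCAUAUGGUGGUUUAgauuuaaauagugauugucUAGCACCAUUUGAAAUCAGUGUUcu
Mir29b-2: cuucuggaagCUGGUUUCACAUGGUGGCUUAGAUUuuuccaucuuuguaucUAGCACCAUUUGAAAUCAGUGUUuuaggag

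Depth differed widely between the arms. Depleted libraries held 938706 to 2271549 mouse miRNA counts and undepleted libraries 21235 to 97183, so that 1 count was a far larger step in the latter. Of the 4 red blood cell miRNAs on the marker list 3 were listed (miR-451a, miR-144-3p and miR-16-5p), and they summed to 22.6% to 28.4% of mouse counts before injection and 11.2% to 16.2% after injection in depleted libraries, and to 24.2% to 29.7% and 10.9% to 16.5% in undepleted libraries. The entries taken as miR-486a-5p, miR-142a-3p and miR-1a-3p were listed in none of the 12 libraries, so the sums of those cell types cover only part of their lists. This does not show that these miRNAs were absent from serum. In the paper, hsa-miR-486-5p was among the differentially expressed miRNAs of depleted samples. The 2 listed white blood cell entries (miR-223-3p and miR-150-5p) summed to a mean of 0.23% before and 0.379% after injection in depleted libraries, the 2 muscle entries (miR-133a-3p and miR-206-3p) to 0.64% and 0.228%, and liver miR-122-5p stayed at or below 0.00333% in each of the 12 libraries. The part of the white blood cell and muscle entries in the values below was not tested.

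miR-29a-3p was the main member in serum. In depleted libraries it made up 88.7% ± 0.641 of all family counts before tumour cells were given and 91% ± 0.704 afterwards (SD, n = 3 each), and its mean level ranked 39 of 861 listed miRNAs. miR-29b-3p ranked 105 and miR-29c-3p 153. In undepleted libraries miR-29a-3p again ranked 39, of 442, but miR-29c-3p ranked 140 and miR-29b-3p 225. In each of the 6 depleted libraries the order of counts was miR-29a-3p, miR-29b-3p, miR-29c-3p, without overlap between neighbours over libraries. In undepleted libraries miR-29b-3p had 0 to 4 counts and miR-29c-3p 0 to 13, and these ranges overlapped. Together the 3 members took 0.277% ± 0.0608 of mouse miRNA counts before injection and 0.442% ± 0.0494 after injection in depleted libraries, and 0.262% ± 0.0506 and 0.369% ± 0.055 in undepleted libraries (SD, n = 3 each). Levels below are in CPM, a count divided by the library's mouse miRNA total and multiplied by 1000000. They are shares of counts, not amounts per volume of serum, and fewer cells that release a miRNA cannot be told apart from less release per cell.

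**Figure D1:**
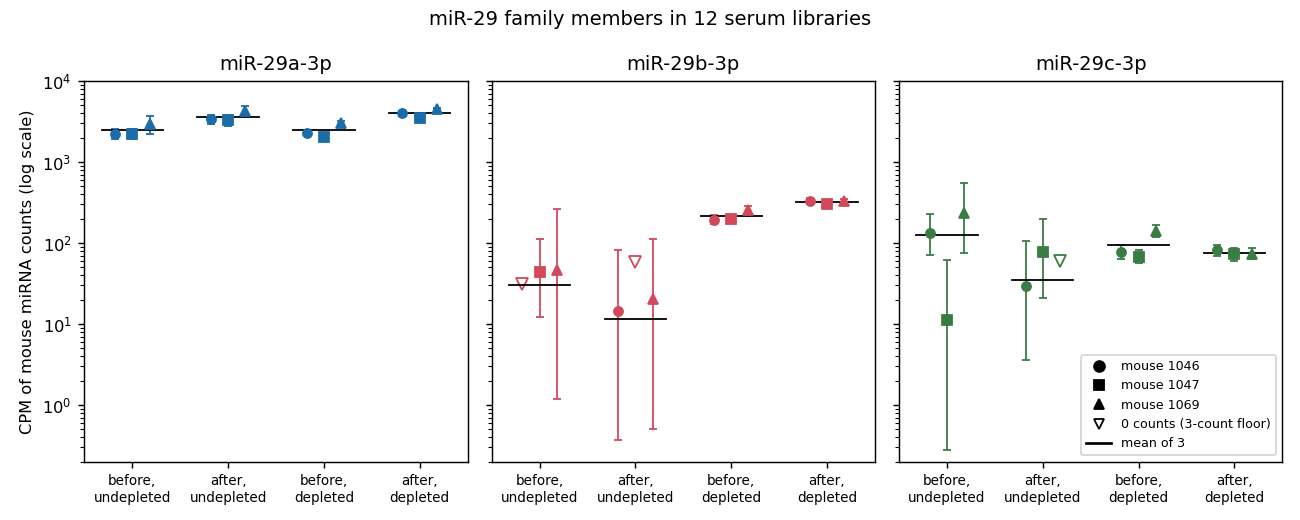
CPM (log axis) of the 3 members in the 4 groups; each symbol is 1 library of a mouse, bars are exact 95% binomial intervals for counting error, black lines are means of 3, and open triangles stand at the 3-count floor of libraries with 0 counts. miR-29a-3p stayed between 2009 and 4504 in all 12 libraries, miR-29b-3p was at 194 to 330.2 in depleted and 0 to 47.1 in undepleted libraries, and miR-29c-3p overlapped between the arms.

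Depletion was compared first, to ask whether removing tRNA-halves left the relative levels of the members as they were. miR-29b-3p was called 10.1-fold higher in depleted libraries, whereas miR-29a-3p and miR-29c-3p were not called. A miRNA was called when its Benjamini-Hochberg adjusted p in DESeq2 was under 0.05 and its change at least 2-fold. By this rule 32 of 383 tested mouse miRNAs were called, a background of 8.36%, of which 19 were higher (4.96% of those tested) and 13 lower in depleted libraries. With TMM factors in DESeq2 the split was 32 higher and 10 lower, and without mouse 1046 the calls numbered 19. With no fold change cut-off 14.4% of tested miRNAs passed, and of the members miR-29b-3p alone.

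miR-29b-3p was counted 262, 364 and 238 times before injection and 586, 527 and 750 times after injection in the depleted libraries of mice 1046, 1047 and 1069. In the undepleted libraries of the same sera it was counted 0, 4 and 1 times before and 1, 0 and 1 times after injection. In CPM, the depleted libraries lay at 194 to 330.2 and the undepleted ones at 0 to 47.1, without overlap, which 8.09% of tested miRNAs showed in the same direction. At the share seen in the depleted aliquots, 96.7 counts would fall in the 6 undepleted libraries, and 7 were counted. Its log2 fold change was 3.33 (SE 0.49, adjusted p = 4.11e-10, DESeq2), the 6th highest of 383, and over 9 alternatives it ranged from 2.69 to 3.89 with adjusted p from 1.4e-16 to 0.000252. The prior of the fit pulls fold changes towards 0, and without it the value was 3.66 (95% interval 2.51 to 4.80).

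miR-29a-3p had 2868 to 10232 counts in depleted and 62 to 229 in undepleted libraries. In CPM it was at 3241 ± 971 and 3054 ± 785 (SD, n = 6 each), and these ranges overlapped over most of their width. Its log2 fold change was -0.04 (SE 0.11, adjusted p = 0.883, DESeq2), with an interval of -0.27 to 0.18 without the prior, so a 2-fold change in either direction lay outside it. With TMM factors the value was 0.21, but the median of tested miRNAs moved with it from -0.04 to 0.21, and relative to that median miR-29a-3p was at 0 under both scalings.

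miR-29c-3p had 105 to 168 counts in depleted libraries, and 13, 1 and 5 counts before and 2, 4 and 0 counts after injection in the undepleted libraries of mice 1046, 1047 and 1069. The 6 undepleted libraries held 25 counts in all, against 29.7 at the share of the depleted aliquots. The library with 0 counts allows up to 60.7 CPM (3 counts, counting error only). Its log2 fold change was 0.22 (SE 0.42, adjusted p = 0.859, DESeq2), with an interval of -0.62 to 1.11 without the prior, which reaches just beyond a 2-fold rise.

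**Figure D2:**
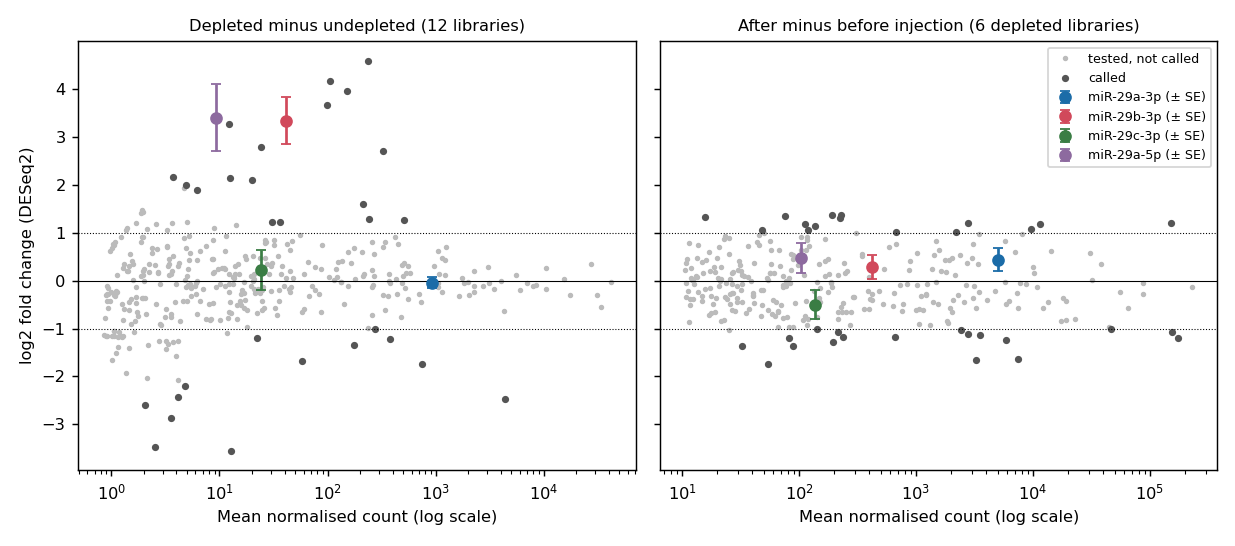
DESeq2 log2 fold changes against the mean normalised count (log axis) of each tested miRNA, for depletion (left, 383 miRNAs) and for time after injection in depleted libraries (right, 310 miRNAs); dark points were called, dotted lines mark a 2-fold change and coloured points are miR-29 strands with SE. At left miR-29b-3p (3.33) and miR-29a-5p (3.40) stand among the highest values while miR-29a-3p (-0.04) and miR-29c-3p (0.22) lie near 0, and at right none of the 4 was called.

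Serum by serum, the share of miR-29b-3p was higher in the depleted aliquot 6 of 6 times, with log2 ratios from 1.85 to 5.24 when 0.5 was added to each count. For miR-29a-3p the ratios ran from -0.16 to 0.26, and for miR-29c-3p from -0.86 to 2.87. The log2 ratio of miR-29b-3p exceeded that of miR-29a-3p by 3.51 ± 1.38 (SD, n = 6 sera), in 6 of 6 sera, with p = 0.03125 in an exact two-sided sign-flip permutation test, the smallest p that 6 sera can give. It exceeded that of miR-29c-3p by 2.88 ± 2.43, in 5 of 6 sera (exact permutation p = 0.0625). miR-29c-3p and miR-29a-3p differed by 0.63 ± 1.61, with miR-29c-3p higher in 3 of 6 sera (exact permutation p = 0.40625). Adjusted over the 3 pairs, the exact permutation p-values were 0.09375, 0.09375 and 0.40625, so no pair passed 0.05. With 1 added in place of 0.5, the first 2 were 0.046875. These tests flipped each serum on its own although the 6 sera came from 3 mice, so the p-values do not measure spread between mice.

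**Figure D3:**
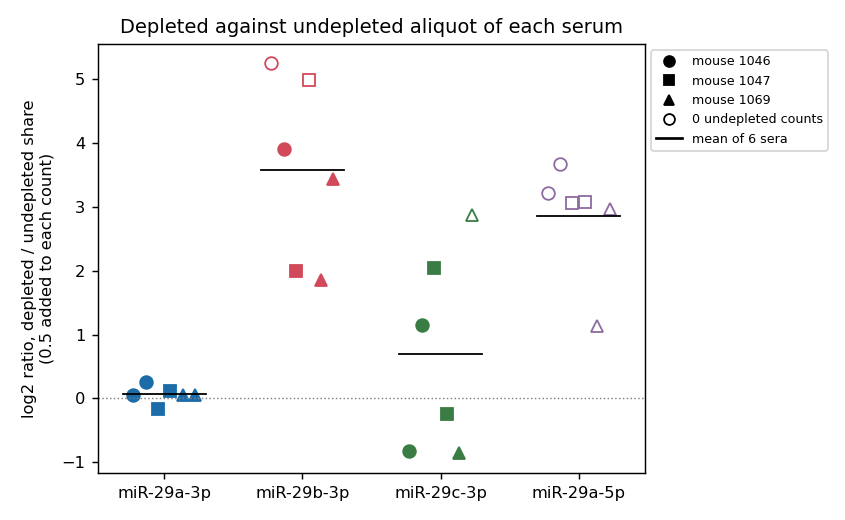
log2 ratio of the share in the depleted to that in the undepleted aliquot of each serum, with 0.5 added to each count; symbols are mice, each with a serum before and after injection, open symbols had 0 undepleted counts and black lines are means of 6 sera. Ratios of miR-29a-3p lie within -0.16 and 0.26, those of miR-29b-3p between 1.85 and 5.24, and those of miR-29c-3p on both sides of 0.

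Of the 4 opposite strands of the hairpins, miR-29a-5p (MIMAT0004631) was the most frequent, with 678 counts over the depleted libraries against 802 of miR-29c-3p and 33210 of miR-29a-3p. Its sequence is given with bases 2 to 8 in capitals because its share, like that of miR-29b-3p, was higher in depleted libraries.
miR-29a-5p: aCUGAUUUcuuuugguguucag
It had 64, 83 and 48 counts before and 165, 140 and 178 counts after injection in the depleted libraries of mice 1046, 1047 and 1069, and 0 counts in each of the 6 undepleted libraries. At the depleted share, 24.2 counts would fall in the undepleted libraries. Against a floor of 3 counts over those 6 libraries its pooled share was at least 8.63-fold higher in depleted libraries, and it was called (adjusted p = 2.08e-05, DESeq2). It entered that test through its depleted counts alone, so the call adds no support beyond the counts themselves. The miR-29c-5p strand summed to 22 counts over the depleted libraries, miR-29b-1-5p to 3 and miR-29b-2-5p to 3. None of them had a count in an undepleted library, where at this depth a 0 says little. The 3 called miRNAs with the highest depletion changes were MIMAT0000162 (4.58), MIMAT0000657 (4.16) and MIMAT0000224 (3.97 on the log2 scale), and they had 0 to 9 counts in undepleted and 549 to 3681 in depleted libraries.

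Sera after injection were then compared with sera before injection. In depleted libraries none of the 3 members was called, against a background of 10.6% of 310 tested miRNAs called, 4.84% higher. The median log2 fold change of those tested was -0.09. Without the fold change cut-off 16.8% of tested miRNAs passed, and again no member did. The 33 calls fell to 11 without mouse 1047 and to 19 without mouse 1069.

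miR-29a-3p lay at 2312, 2009 and 3055 CPM before injection and at 4020, 3545 and 4504 after injection in the depleted libraries of mice 1046, 1047 and 1069. The groups did not overlap, which 29% of tested miRNAs also showed in this direction. In undepleted libraries it was at 2233, 2233 and 2920 before and 3361, 3272 and 4308 after, again without overlap, as were 27.8% of 108 tested miRNAs. In both arms the share of red blood cell miRNAs was lower in each library after injection than in any before. With those entries left out of the total, the ratio of the group means of miR-29a-3p fell from 1.64 to 1.41 in depleted libraries, where the groups still did not overlap (2808 to 3948 against 4117 to 5071), and from 1.48 to 1.25 in undepleted libraries, where they did (3091 to 3850 against 3811 to 4835). Leaving out entries whose share fell lowers this ratio for any other miRNA, so its direction was fixed beforehand. In DESeq2 with size factors without these entries, the log2 fold change of miR-29a-3p was 0.47 in depleted and 0.33 in undepleted libraries.

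On normalised counts, scaled by the median-of-ratios size factors of DESeq2, the change of miR-29a-3p was smaller. In depleted libraries they lay at 4169, 4028 and 4573 before and 5746, 5109 and 6739 after injection, without overlap, as did 20.3% of tested miRNAs in this direction. The log2 fold change was 0.44 in depleted libraries (SE 0.24, adjusted p = 0.194, DESeq2) and 0.45 in undepleted libraries (SE 0.25, adjusted p = 0.176, DESeq2). They were higher after injection in 3 of 3 mice in each arm, 1.27- to 1.47-fold in depleted and 1.22- to 1.62-fold in undepleted libraries. Without the prior the intervals were -0.03 to 0.95 and -0.04 to 0.99, which reach from no change to just under 2-fold. Over 10 alternatives each, adjusted p ranged from 0.0419 to 0.448 in depleted libraries, with the lowest value without mouse 1069 at a log2 change of 0.40, and from 0.149 to 0.998 in undepleted libraries.

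miR-29b-3p was at 194, 200 and 254 CPM before and 329, 303 and 330.2 after injection in depleted libraries, without overlap, as was the case for 29% of tested miRNAs in this direction. Its log2 fold change on normalised counts was 0.29 (SE 0.25, adjusted p = 0.438, DESeq2). miR-29c-3p was at 77.9, 68.1 and 142 before and 81.4, 72.9 and 74 after injection, and its groups overlapped, with the serum of mouse 1069 before injection above the other 5. On normalised counts, however, miR-29c-3p was at 140, 137 and 212 before and 116, 105 and 111 after injection, lower in 3 of 3 mice and without overlap, which 17.7% of tested miRNAs showed in this direction. Its log2 fold change was -0.50 (SE 0.31, adjusted p = 0.255, DESeq2), and -0.27 without mouse 1069. In undepleted libraries both members had too few counts to be given an adjusted p by DESeq2, with log2 fold changes of -0.27 for miR-29b-3p (SE 0.41) and -0.70 for miR-29c-3p (SE 0.51). The value of miR-29c-3p was -0.39 without mouse 1046, -1.19 without mouse 1047, -0.16 without mouse 1069 and -1.75 without the prior, and that of miR-29b-3p was 0.03 without mouse 1047, -0.12 without mouse 1069 and -1.39 without the prior. Over the alternatives that gave one, adjusted p ranged from 0.636 to 0.998 for miR-29b-3p and from 0.369 to 0.960 for miR-29c-3p. There the background was 11.1% of 108 tested miRNAs called, 8.33% higher, and 19.4% without the fold change cut-off. The 12 calls fell to 1 without mouse 1047 and to 7 without mouse 1069.

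The members were also compared with each other within the depleted libraries, where no scaling between libraries enters. For each 100 counts of miR-29a-3p, the libraries of mice 1046, 1047 and 1069 held 3.37, 3.39 and 4.64 counts of miR-29c-3p before and 2.03, 2.06 and 1.64 after injection. The ratio was lower in 3 of 3 mice, from a mean of 3.80 ± 0.727 to 1.91 ± 0.231 (SD, n = 3 each), without overlap. The exact two-sided permutation p of 0.1 is the smallest that 3 against 3 libraries can give, and the test did not pair the libraries by mouse. How many other miRNAs separate in their ratio to miR-29a-3p was not computed, so the fall is not shown to be particular to miR-29c-3p. On normalised counts miR-29a-3p rose without overlap, and 17.7% of tested miRNAs fell without overlap. miR-29b-3p stood at 8.88 ± 0.923 before and 8.02 ± 0.620 after injection per 100 counts of miR-29a-3p (exact permutation p = 0.4), and the groups overlapped. Its ratio, too, was lower after injection in 3 of 3 mice. The 2 strands of the Mir29a hairpin stood at 2.00 ± 0.301 and 2.10 ± 0.316 counts of miR-29a-5p per 100 of miR-29a-3p (exact permutation p = 0.6). Adjusted over these 3 ratios the p-values of the exact permutation tests were 0.3, 0.6 and 0.6.

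**Figure D4:**
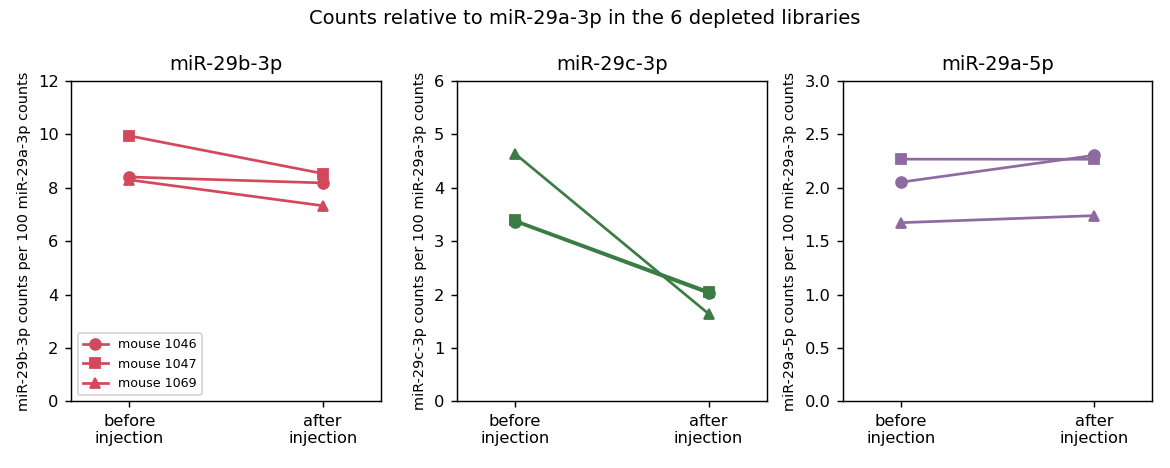
Counts of miR-29b-3p, miR-29c-3p and miR-29a-5p per 100 counts of miR-29a-3p in the 6 depleted libraries, before and after injection (axes start at 0 and differ in scale); a line joins the sera of 1 mouse. For miR-29c-3p the points lie at 3.37 to 4.64 before and 1.64 to 2.06 after injection, and for miR-29a-5p between 1.67 and 2.30 at both times.

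miR-29a-5p itself lay at 45.6 to 51.1 CPM before and 78.4 to 92.6 after injection in depleted libraries, with a log2 fold change of 0.47 on normalised counts (SE 0.31, adjusted p = 0.287, DESeq2). Across the 6 depleted libraries, log2 normalised counts of miR-29a-3p and miR-29b-3p had a Pearson r of 0.901, and miR-29c-3p stood at -0.534 with the first and -0.668 with the second. Of 210 other miRNAs whose mean normalised count reached 50, the closest to miR-29a-3p were MIMAT0000537 (r = 0.993), MIMAT0014946 (0.960) and MIMAT0004628 (0.936). The closest to miR-29b-3p were MIMAT0004934 (r = 0.964), MIMAT0014836 (0.940) and MIMAT0004842 (0.936), and to miR-29c-3p MIMAT0014851 (r = 0.992), MIMAT0000225 (0.982) and MIMAT0004664 (0.972). The 6 libraries come from 3 mice, differ in depth and span both time points, so each r includes the change between time points. The miRNAs named as closest are the highest of 210, and the values are descriptions.

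Whether the change after injection differed between depleted and undepleted libraries was tested as an interaction on all 12 libraries. None of 874 miRNAs was called (0% by DESeq2 on the adjusted p alone, with 3 at an unadjusted p under 0.05; edgeR called 0, with 11 at that level). The log2 difference was 0.07 for miR-29a-3p (95% interval -0.41 to 0.55), 1.61 for miR-29b-3p (-0.82 to 4.03) and 1.17 for miR-29c-3p (-0.68 to 3.01), each with an adjusted p of 0.998 in DESeq2. Leaving out 1 mouse moved the value of miR-29c-3p to between 0.52 (without mouse 1069) and 2.83 (without mouse 1047), and that of miR-29b-3p to between -0.21 (without mouse 1047) and 2.69 (without mouse 1046). The interval was thus within 2-fold only for miR-29a-3p.

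The human tables were compared by counts. The entries taken as human miR-29a-3p, miR-29b-3p, miR-29c-3p and miR-29a-5p had the same counts as the mouse entries in 12 of 12 libraries, with a summed difference of 0, so the reads of the family could not be assigned to the mouse or to the human graft.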

How the data were processed

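Small RNA was sequenced from 12 serum libraries in 4 groups of 3. The authors deposited read counts per mature miRNA, not normalized, 1 mouse and 1 human table for each library. Per the paper's methods and the labels, adaptors were trimmed with cutadapt 1.8.1, short and low-quality reads were discarded, the rest was mapped with Bowtie 1.1.2 without mismatches, and reads were assigned by overlap with miRBase coordinates (GRCm38 or GRCh37). How reads matching several loci were counted is not given in the sources used here. A missing entry was taken as 0.

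The members, lists and tests were chosen with earlier results of these data known. Accessions were paired with names for the members by their given identity and for miR-16-5p by the study. All other names (opposite strands, marker lists, human entries) were paired by hand from miRBase numbering and not checked against a table. Named besides the members were their opposite strands, the 3 called miRNAs with the highest depletion change, and for each member the 3 miRNAs with the highest r. Sequences were matched by name in a RefSeq table, for 3 of 3 members.

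Counts were tested with DESeq2 1.42.0 in R 4.3.3 (median-of-ratios size factors, Wald test with the prior on fold changes, independent filtering), each arm by time point, and depletion on 12 libraries with time point as a covariate. The interaction was fitted without the prior. Only adjusted p-values under 0.05 with at least a 2-fold change were called. The scripts were tested on simulated data. Exact permutation tests, exact binomial 95% intervals and floors of 3 counts used Python 3.11.15 and SciPy 1.17.1; intervals and floors cover counting error only, since reads carried no molecular identifiers. Alternatives were edgeR 4.0.16 with TMM factors, DESeq2 with TMM factors, keeping only miRNAs with 4 counts or more in 3 libraries, no prior, no fold change cut-off, leaving out each mouse, and a block. Added after the data were seen were size factors and shares without red blood cell entries, the ratios to miR-29a-3p and the counts expected at the depleted share.

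The mouse number in the labels pairs samples from 1 animal, and a serum pairs the 2 aliquots. Deviations from group means correlated between the aliquots of a serum with a mean r of 0.55 (0.43 to 0.62), and between the 2 sera of a mouse with -0.15 in depleted and -0.21 in undepleted libraries. Depleted libraries held 938706 to 2271549 counts and undepleted libraries 21235 to 97183, which limits the values of miR-29b-3p and miR-29c-3p in the latter. Counts of tRNA-halves were not analysed here.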

Additional observations from a re-analysis of the deposited data

Results flagged for a closer look

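The log2 ratio of depleted to undepleted miR-29a-5p was 1.13 in the serum of mouse 1069 before injection, far below the other 5 sera (2.96 to 3.66). The undepleted library of that serum was the shallowest, with 21235 counts, in which 1.09 counts would fall at the depleted share. Of 4 strands examined in this way, 1 was set apart. With 0 undepleted counts in each serum, the ratios of miR-29a-5p were set by the added 0.5, the depleted counts and the library totals. No chance rate applies to them. In the human tables (here CPM is per 1000000 human-table counts), which entered no test between groups, miR-29a-3p had a mean of 2685 CPM after injection in depleted and 2475 in undepleted libraries, each library above any before injection (949 to 1658 and 1151 to 1799). Of the human-table miRNAs with 4 or more counts in 3 or more libraries of the arm, 36.8% of 277 in depleted and 29% of 131 in undepleted libraries did so too. miR-29b-3p had 213 CPM in depleted libraries after injection, again above any before (94.4 to 138). The mean of miR-29c-3p was 49.8 before and 50.5 after injection there. In undepleted libraries the means of miR-29b-3p (17.4 before, 8.02 after) and miR-29c-3p (73.3 before, 23.4 after) were lower after injection. These are the same counts as in the mouse tables.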

How the results depend on the processing

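Of the 185 alternative values, 162 kept their direction and side of the threshold or moved little. The setting without a fold change cut-off reuses the main fit. Its member values therefore repeat the main log2 change and adjusted p and could not move, here and wherever alternatives are counted. With only 4 or 3 sera, the sign-flip tests between members could not reach 0.05, so those alternatives could not pass it either. The call of miR-29b-3p in the depletion fit held under each alternative run, and no member was called in a tumour fit. Those runs reuse the same counts or a part of them and are not independent. With no fold change cut-off the calls numbered 52 (tumour, depleted), 21 (tumour, undepleted) and 55 (depletion). Leaving out 1 mouse gave 11 to 32, 1 to 11 and 19 to 33 calls, with fewer libraries in each fit. The depletion value of miR-29a-3p turned to 0.22 with edgeR, 0.21 with TMM factors and 0.03 without mouse 1047 (-0.10 to 0.03 over mice). Its interaction turned to -0.06 with edgeR and -0.05 with TMM factors. Without mouse 1047 the interaction of miR-29b-3p was -0.21 (-0.21 to 2.69 over mice) and its undepleted tumour value 0.03 (-0.37 to 0.03 over mice); the cause was not tested. With 1 added to each count, miR-29b-3p exceeded miR-29a-3p by 2.95 and miR-29c-3p by 2.65 in log2 depletion ratio. Both passed, again with the sera of 1 mouse flipped separately.

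Without red blood cell entries the family's share was 0.358% (before, undepleted), 0.428% (after, undepleted), 0.373% (before, depleted) and 0.512% (after, depleted). Without the most abundant miRNA it was 0.428% after injection in undepleted and 0.520% in depleted libraries. Paired fits with a block for mouse or serum gave 26, 11, 27 and 0 calls (tumour in each arm, depletion, interaction), with miR-29b-3p at 2.87 in the depletion fit (adjusted p = 8.47e-08), and changed no call of a member. Under the filter, undepleted miR-29b-3p had no value after injection. Depth limits miR-29b-3p and miR-29c-3p in undepleted libraries, with 7 and 25 counts in all.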
